A study of Mus musculus with 41 samples.

Results

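The 4 arrays of epidermal stem cells from mice on a high fat diet and the 4 arrays from mice on the control diet, all collected at zeitgeber time 16 (ZT16, counted in h from lights on), were compared across 17097 genes. They were chosen by their labels alone and make up 8 of the 41 arrays of the series. The mice of both groups were wild type females of strain C57B6/J, 8 weeks old when the diets began and 15 weeks old at collection, and all ate without restriction for 7 weeks, either the high fat diet or its matched control diet. The study collected such cells from both diets every 4 h over a day, from ZT0 to ZT20, with 4 mice planned per diet and time point. One time point was collected per day, so a difference between time points cannot be told apart from one between collection days, and the sources used here do not say whether both diets were collected on the same day. The arrays are numbered as replicates, but nothing in the labels says that they come from different mice, so p-values reflect only how far arrays of a group differ.

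Epidermal stem cells lie in the basal layer of the epidermis and in the hair follicle, where they divide or leave the layer to differentiate. Their gene expression follows the circadian clock, a feedback loop in which the activators BMAL1 and CLOCK switch on their own repressors. ZT16 falls in the dark phase of a usual light cycle, when mice are active and feed. Adrenal glucocorticoids, insulin, temperature and the supply of nutrients also vary over the day and act on transcription in the skin.

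The labelled cell type was set against its markers. The basal keratins Krt5 and Krt14 stood at 12.67 to 12.70 and 12.69 to 12.75 on the log2 scale in the high fat arrays, and at 12.69 to 12.76 and 12.61 to 12.71 in the control arrays. The mean level of 13 basal keratinocyte genes was 11.69 to 11.84 on the high fat diet and 11.58 to 11.76 on the control diet. By the probe set that stood for each gene, 0 of them passed the test of diet. Cd34, a marker of the hair follicle bulge, was low at 5.17 to 5.70 on the high fat diet and 5.19 to 6.09 on the control diet, against array medians of 6.41 to 6.43. The bulge list as a whole was not: its 12 measured genes averaged 7.53 to 7.68 on the high fat diet and 7.50 to 7.74 on the control diet. The ranges of the mean levels of the marker lists of other cells overlapped between the diets, some of them narrowly. The 13 leukocyte and Langerhans cell genes averaged 6.74 to 6.91 on the high fat diet and 6.78 to 6.90 on the control diet. The 12 fibroblast and matrix genes averaged 6.59 to 6.72 on the high fat diet and 6.53 to 6.60 on the control diet. For 8 endothelial genes the ranges were 5.73 to 5.81 on the high fat diet and 5.79 to 5.82 on the control diet, and for 8 melanocyte genes 6.08 to 6.14 on the high fat diet and 5.99 to 6.16 on the control diet. Array values have no true zero, so a low level here does not show whether such a gene was expressed. In a bulk sample, fewer cells of a type and less RNA per cell cannot be told apart.

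The diets differed in 212 of 17097 genes at ZT16, which is 1.24% of those tested (limma, Benjamini-Hochberg adjusted p below 0.05). Of these, 99 genes (0.579% of those tested) were higher and 113 (0.661%) were lower on the high fat diet. The changes were small: the median absolute log2 difference was 0.43 among the changed genes and 0.079 over all genes, 55 changed genes reached 1.5-fold (34 higher and 21 lower), and 5 reached 2-fold, all of them higher. In 192 of the 212 genes the 4 high fat arrays lay wholly above or below the 4 control arrays, and in the other 20 the arrays overlapped. Arrays that do not overlap were common over all genes, with 3.99% of genes higher and 4.64% lower in every high fat array than in every control array. In a principal component analysis of the 8 arrays the first component held 29.8% of the variance and placed the high fat arrays at -13.33 to -8.03 and control replicates 1, 2 and 3 at 13.80 to 14.65. Control replicate 4 stood between them at 0.16. Without it 350 genes passed, while without control replicate 1, 2 or 3 the numbers were 82, 84 and 119, and without high fat replicate 1, 2, 3 or 4 they were 113, 150, 149 and 120.

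**Figure D1:**
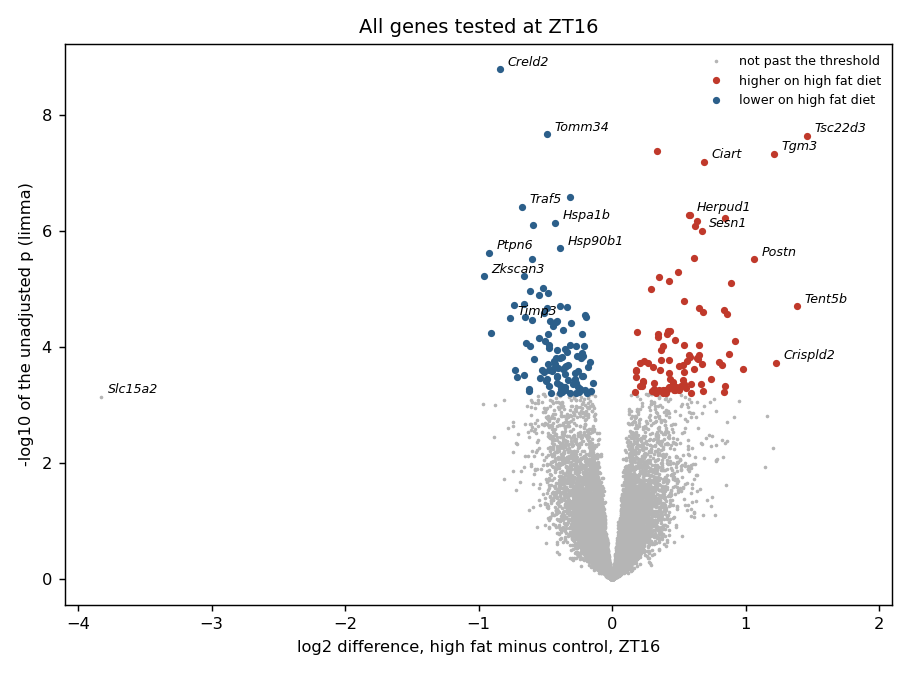
Each point is a gene. The horizontal axis gives the log2 difference, high fat minus control, at ZT16, and the vertical axis the negative log10 of the unadjusted limma p; red points are the 99 genes higher and blue points the 113 genes lower on the high fat diet. Creld2 has the smallest p, the largest rises extend beyond the largest falls, and Slc15a2, at a log2 difference of -3.83, did not pass the threshold.

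The 5 genes that at least doubled were Tsc22d3, Tent5b, Crispld2, Tgm3 and Postn. Tsc22d3 encodes GILZ, a leucine zipper protein induced by glucocorticoids that restrains inflammatory transcription. It measured 10.27, 9.87, 9.58 and 9.53 in the high fat arrays, against 8.07, 7.91, 8.63 and 8.80 in the control arrays, a log2 difference of 1.46 ± 0.20 (SE) or 2.75-fold (limma, adjusted p = 0.00013). No high fat array overlapped a control array. Of the gene's other probe sets 1 gave 1.20 and 1 gave 0.03. Tgm3 encodes a transglutaminase that cross-links proteins of the cornified envelope and the hair shaft. Its values were 9.87, 10.33, 9.85 and 9.86 on the high fat diet and 8.85, 8.34, 8.66 and 9.20 on the control diet (1.21 ± 0.17, SE, adjusted p = 0.000156). The high fat arrays again lay wholly above the control arrays.

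Postn encodes periostin, a matrix protein listed here among the bulge genes. It measured 9.38, 9.46, 9.77 and 9.89 on the high fat diet and 8.21, 8.60, 8.71 and 8.72 on the control diet (1.07 ± 0.19, SE, adjusted p = 0.00246), with no overlap. Tent5b, which encodes a poly(A) polymerase, measured 8.46, 8.55, 7.47 and 8.10 on the high fat diet against 6.56, 6.30, 6.60 and 7.59 on the control diet (1.38 ± 0.28, SE, adjusted p = 0.00893). Here control replicate 4 lay above high fat replicate 3. Crispld2, which encodes a secreted cysteine-rich protein, measured 7.09, 8.37, 8.72 and 8.64 on the high fat diet and 6.84, 6.92, 6.98 and 7.16 on the control diet (1.23 ± 0.29, SE, adjusted p = 0.0299). High fat replicate 1 stayed within the control range, and the gene's other probe set gave 1.10. Crispld2 lost the call without any of control replicates 1 to 3 or high fat replicates 2 to 4 (adjusted p of 0.0611 to 0.0892). In the 8 arrays alone neither Tent5b (adjusted p = 0.125) nor Crispld2 (0.155) passed.

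**Figure D2:**
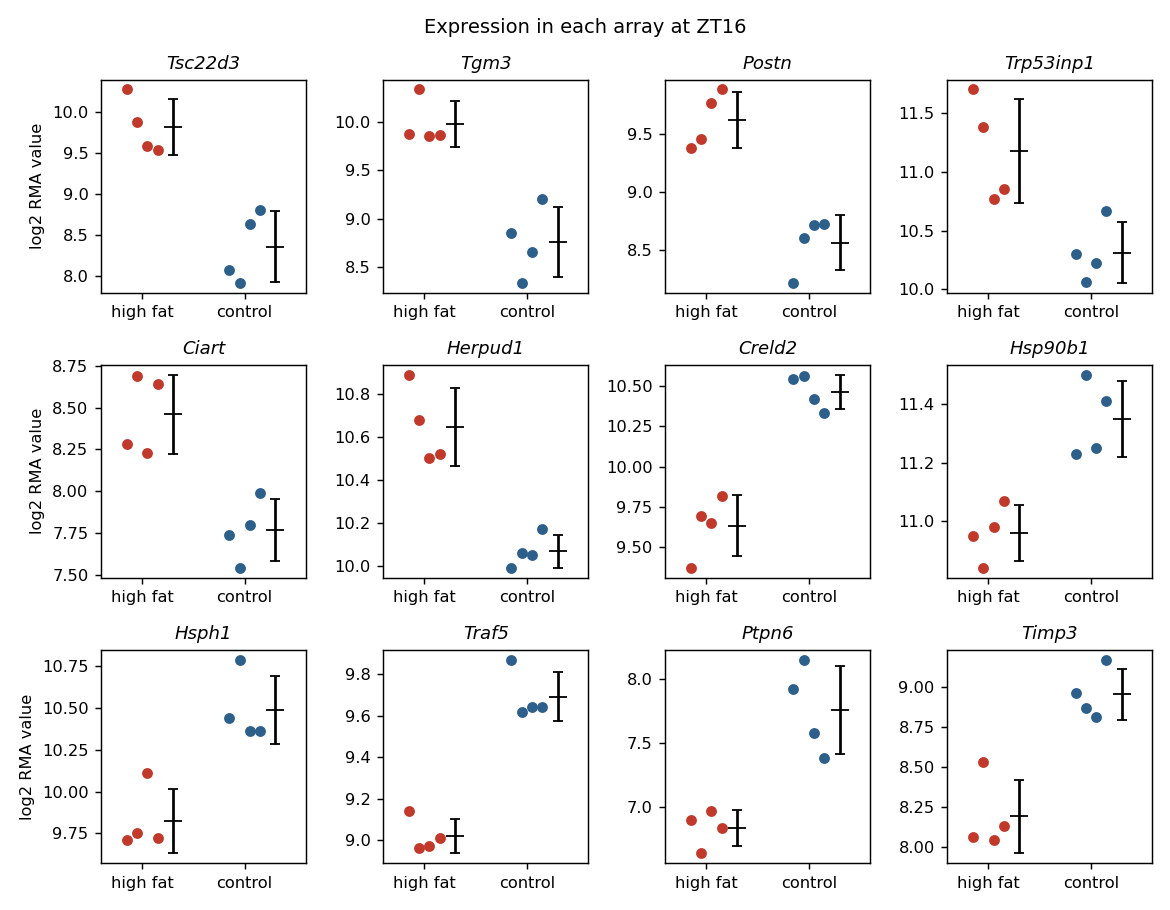
Log2 RMA values of 12 genes in the 4 high fat arrays (red, left) and the 4 control arrays (blue, right) at ZT16, with the group mean and SD in black. In all 12 genes the arrays of the diets do not overlap, with Tsc22d3, Tgm3, Postn, Trp53inp1, Ciart and Herpud1 higher and Creld2, Hsp90b1, Hsph1, Traf5, Ptpn6 and Timp3 lower on the high fat diet.

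The next largest rises ran from a log2 difference of 0.98 for Bcar3, an adaptor protein of integrin signalling, to 0.82 for Nsmaf, an adaptor of neutral sphingomyelinase. Between them lay H1f2 (0.92, a linker histone), Stil (0.89, a centriole duplication factor), Ramp3 (0.87, a co-receptor of calcitonin-like receptors), Trp53inp1 (0.86), Zc3h12a (0.85, a ribonuclease that degrades inflammatory transcripts), Acer2 (0.84, a Golgi ceramidase), Pde4b (0.84, a cyclic AMP phosphodiesterase) and Cyp4v3 (0.83, a fatty acid hydroxylase). The arrays overlapped for Bcar3 and Acer2 and stood apart for the others. The largest falls were Zkscan3 (-0.96, a zinc finger repressor of autophagy genes in human cells), Ptpn6 (-0.92, the tyrosine phosphatase SHP-1), Limk1 (-0.90, the kinase of cofilin), Creld2 (-0.84), Timp3 (-0.76, a metalloproteinase inhibitor), Mrps33 (-0.74, a mitochondrial ribosomal protein), Rfesd (-0.73), Rnd2 (-0.71) and Traf5 (-0.67, a TNF receptor adaptor). Hsph1 (-0.66), Sap30 (-0.66, a subunit of a histone deacetylase complex), Kti12 (-0.63), Cand1 (-0.62, an exchange factor of cullin ubiquitin ligases), Taok3 (-0.61, a kinase) and Efna2 (-0.61, an ephrin) completed the 15 largest. Ptpn6 measured 6.90, 6.64, 6.97 and 6.84 on the high fat diet and 7.92, 8.15, 7.58 and 7.38 on the control diet. The arrays overlapped for Rnd2 and Kti12 only among these 15. For Limk1 and Efna2 another probe set gave 0.14 and 0.04, and for Pde4b -0.09. Other probe sets of Zkscan3 (-0.33 and -0.045), Cand1 (-0.30 to -0.10), Rfesd (-0.14) and Cyp4v3 (0.26) had the same sign but did not pass. Among these rises Bcar3, H1f2, Ramp3, Trp53inp1, Acer2, Pde4b and Nsmaf lost the call without some single arrays. Among the falls Limk1, Rfesd, Rnd2, Sap30, Kti12, Cand1 and Taok3 did.

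Several genes of protein folding in the endoplasmic reticulum fell on the high fat diet. Creld2, which encodes a resident chaperone induced when unfolded proteins accumulate, had the smallest p of all genes. It measured 9.37, 9.69, 9.65 and 9.82 on the high fat diet, against 10.54, 10.56, 10.42 and 10.33 on the control diet (log2 difference -0.84 ± 0.10, SE, limma adjusted p = 2.76e-05). The gap between the groups was wider than the range within either. Of the 14 measured genes of the unfolded protein response list, which does not hold Creld2, 3 fell, 1 rose and 10 did not pass, against 1.24% of all genes called. The median log2 difference of the 14 was -0.29, against -0.003 over all genes, and 10 were negative.

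The 3 that fell were chaperones or folding enzymes. Hsp90b1, the endoplasmic reticulum form of HSP90, measured 10.95, 10.84, 10.98 and 11.07 on the high fat diet and 11.23, 11.50, 11.25 and 11.41 on the control diet (-0.39 ± 0.067, SE, adjusted p = 0.00198). Pdia6, a protein disulfide isomerase, measured 9.10, 8.75, 9.10 and 8.98 on the high fat diet against 9.26, 9.50, 9.26 and 9.58 on the control diet (-0.42 ± 0.088, SE, adjusted p = 0.0121). Calr, the calcium-binding lectin chaperone calreticulin, measured 10.42, 10.38, 10.58 and 10.77 on the high fat diet against 10.80, 11.00, 10.96 and 10.87 on the control diet (-0.37 ± 0.096, SE, adjusted p = 0.0484). All 3 had every high fat array below every control array, and another probe set of each was also lower, at -0.45, -0.66 and -0.54. Calr stood at the threshold: its adjusted p was 0.0708 to 0.126 without any of control replicates 1 to 3 or high fat replicates 1 to 3. Pdia6 lost the call without control replicate 2 (adjusted p = 0.0549) or high fat replicate 2 (0.0542). Fitted to the 8 arrays alone, where fewer arrays estimate the spread, 0 of the list passed as lower.

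Other members were lower without passing by the probe set that stood for the gene. Hspa5, which encodes the master chaperone BiP, measured 8.45, 8.62, 8.96 and 8.71 on the high fat diet and 9.06, 9.09, 9.02 and 9.23 on the control diet (-0.42, adjusted p = 0.122), while its other probe set was at -0.51 and passed (adjusted p over probe sets of 0.0456). Xbp1, a transcription factor of the response, was at -0.29 (adjusted p = 0.307), and Ddit3, its death-promoting factor CHOP, at -0.16 (0.262). The arrays stood apart for Hspa5 and Xbp1 but not for Ddit3. Herpud1, which serves the degradation of misfolded proteins, went the other way: it measured 10.89, 10.68, 10.50 and 10.52 on the high fat diet and 9.99, 10.06, 10.05 and 10.17 on the control diet (0.58 ± 0.092, SE, adjusted p = 0.000895), and its other probe set gave 0.66.

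Another list, of 45 genes of entry into the secretory pathway and of further folding and degradation factors, was drawn up after the values were seen. Of its 41 measured members 0 rose and 3 fell, where 0.661% of all genes fell: Creld2, Spcs2 (-0.41, a subunit of the signal peptidase) and Sec13 (-0.37, a coat protein of transport vesicles). Manf (-0.45, adjusted p = 0.0546), a secreted stress factor, and the chaperone Hyou1 (-0.61, adjusted p = 0.0645) had every high fat array below every control array but did not pass. Another probe set of Hyou1 passed, at -0.91 (adjusted p over probe sets of 0.00114). Spcs2 and Sec13 each lost the call without some single arrays (adjusted p up to 0.0835 and 0.0913). The other probe set of Spcs2 was at -0.11 and did not pass. The median of the 41 was -0.024.

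Creld2, Hsp90b1, Pdia6 and Calr share a sequence in their promoters. The stretches are shown because the element is the known binding site of NF-Y and the stress factor ATF6. The endoplasmic reticulum stress response element was searched as CCAAT and CCACG with 9 bases of any kind between them, on both strands, with results known, in the RefSeq promoters of 250 bases before to 50 after each start site (table built on GRCm38.p6). Of the 212 changed genes, 163 matched a promoter in that table. The element is in capitals, with 20 bases on either side, and a match on the reverse strand reads CGTGG to ATTGG. Creld2 (chr15:88819500-88819558, plus strand) and Calr (chr8:84847055-84847113, minus strand) carry it in reverse, Pdia6 (chr12:17266471-17266529, plus strand) forward, and Hsp90b1 (chr10:86705513-86705676, minus strand) once in each direction. Hspa5 (chr2:34772005-34772063, plus strand) is shown beside them.
Creld2: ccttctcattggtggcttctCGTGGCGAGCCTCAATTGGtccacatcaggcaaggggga
Calr: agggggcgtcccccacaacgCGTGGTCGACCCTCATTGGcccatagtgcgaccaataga
Pdia6: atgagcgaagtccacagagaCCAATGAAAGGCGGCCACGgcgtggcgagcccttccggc
Hsp90b1: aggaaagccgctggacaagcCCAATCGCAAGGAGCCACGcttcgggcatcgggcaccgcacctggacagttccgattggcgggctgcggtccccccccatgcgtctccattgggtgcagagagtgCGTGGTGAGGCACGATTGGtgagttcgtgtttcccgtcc
Hspa5: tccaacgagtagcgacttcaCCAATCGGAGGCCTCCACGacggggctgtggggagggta

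The element was rare, in 39 of 32851 promoters (0.119%). Of the measured genes 20 carried it, and 4 of these fell and 0 rose, where 1.24% of all genes changed. The motif was looked for because Creld2, Hsp90b1, Pdia6 and Calr had been seen to fall, so the share is a description. The median of the 20 was -0.056, and members such as Canx, the membrane-bound lectin chaperone calnexin (-0.10, adjusted p = 0.554), did not pass. Ero1b, an oxidase that supplies disulfide bonds, measured 7.52, 7.26, 7.33 and 7.47 on the high fat diet and 7.88, 7.82, 7.91 and 7.91 on the control diet, which stood apart but missed the threshold (-0.49, adjusted p = 0.0669). The promoter of Herpud1, the member that rose, held no match to these letters. It does hold ATTGG and CCACG with 1 base between them, an arrangement that was not searched for. The lack of a match therefore does not set Herpud1 apart from the genes that fell. Other elements were searched in the same way. The heat shock element (GAA, TTC and GAA with 2 bases of any kind between each) stood in the promoters of 80 measured genes, of which 0 rose and 1 fell (1.25%). The forkhead element GTAAACA stood in those of 460, of which 1 rose and 3 fell (0.870%), and the glucocorticoid element (AGAACA and TGTTCT with 3 bases between) in those of 2, of which 0 changed. They stand in 0.603%, 3.65% and 0.00913% of all promoters. A match is a description of the sequence and not evidence that a factor bound there.

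Some chaperones of the cytosol fell as well. Of 9 measured heat shock genes 2 fell, where 0.661% of all genes did, 0 rose and 7 did not pass, with a median of 0.008. Hsph1, an HSP110 exchange factor of HSP70, measured 9.71, 9.75, 10.11 and 9.72 on the high fat diet and 10.44, 10.79, 10.36 and 10.36 on the control diet (-0.66 ± 0.12, SE, adjusted p = 0.00412). Hspa1b, an inducible HSP70, measured 10.63, 10.69, 10.82 and 10.82 on the high fat diet against 11.17, 11.27, 11.17 and 11.05 on the control diet (-0.42 ± 0.069, SE, adjusted p = 0.00091). Neither gene's arrays overlapped, and both calls held without each of the 8 arrays in turn, but in the 8 arrays alone Hsph1 did not pass (adjusted p = 0.0818). The 2 other probe sets of Hspa1b were at -0.13 and did not pass. Hspa1b has a near-identical neighbouring copy, so its probe set may read both. Tomm34, a co-chaperone of HSP70 and HSP90 named for its ZT16 difference from the other time points, measured 8.78, 8.65, 8.83 and 8.87 on the high fat diet against 9.26, 9.34, 9.36 and 9.12 on the control diet (-0.49 ± 0.066, SE, adjusted p = 0.00013). Dnajb2 (-0.43) and Hspa4 (-0.20), chosen after their values were seen, also fell, the call on Hspa4 resting on 1 probe set, since the mean of its probe sets was 0.02.

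In the list of genes that respond to glucocorticoids 1 of 9 measured members passed by the probe set that stood for it, where 0.579% of all genes rose. Tsc22d3 rose and 8 did not pass, while 8 were positive and the median was 0.37, against -0.003 over all genes. Fkbp5, a co-chaperone of the glucocorticoid receptor, measured 9.26, 9.39, 8.95 and 8.87 on the high fat diet and 7.64, 7.56, 9.13 and 8.69 on the control diet (0.86, adjusted p = 0.103). Control replicate 3 lay inside the high fat range, and replicates 3 and 4 of the controls were more than a log2 unit above replicates 1 and 2. Sgk1, a kinase, measured 10.74, 10.67, 10.78 and 10.53 on the high fat diet against 10.19, 10.48, 9.95 and 10.61 on the control diet (0.37, adjusted p = 0.0727). Klf9, a transcription factor, was at 0.37 (adjusted p = 0.12), with control replicate 4 at 11.41 above the other controls. Of its 4 other probe sets 2 passed, at 0.78 and 0.79 (adjusted p over probe sets of 0.0382 and 0.0342), and 2 did not, at -0.04 and 0.26. Zbtb16, another transcription factor, was at 0.44 (adjusted p = 0.249). Without control replicate 3, and likewise without control replicate 4, 2 members passed.

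Genes of insulin signalling and of FOXO factors, which insulin keeps out of the nucleus, had 2 of 14 members higher, where 0.579% of all genes were, and 0 lower, with a median of 0.13. Foxo3, one of these factors, measured 10.70, 10.56, 10.50 and 10.51 on the high fat diet and 10.14, 10.33, 10.08 and 10.07 on the control diet (0.41 ± 0.089, SE, adjusted p = 0.0163). Pik3r1, the regulatory subunit of phosphoinositide 3-kinase, measured 11.23, 10.84, 10.54 and 10.50 on the high fat diet against 10.00, 10.24, 10.43 and 10.52 on the control diet (0.48 ± 0.12, SE, adjusted p = 0.0469). Its arrays touched, at high fat replicate 4 and control replicate 4, but its 3 other probe sets were higher too, by 0.58 to 0.85. The other probe sets of Foxo3 were higher without passing, at 0.40 and 0.19 (adjusted p over probe sets of 0.0696 and 0.338). In the 8 arrays alone neither Foxo3 (adjusted p = 0.0723) nor Pik3r1 (0.26) passed. Foxo3 lost the call without control replicate 3 (adjusted p = 0.0523) or high fat replicate 1 (0.0636). Pik3r1 lost it without any of control replicates 1, 2 and 3 or high fat replicates 1 and 2, with adjusted p of 0.0592 to 0.167. Txnip, a glucose-responsive inhibitor of glucose uptake, had 12.81, 12.53, 12.17 and 12.74 on the high fat diet against 11.96, 11.73, 12.08 and 11.73 on the control diet, which stood apart but missed the threshold (0.69, adjusted p = 0.0575). Its other probe set passed, at 1.05 (adjusted p over probe sets of 0.0153).

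In the list of p53 targets and growth arrest genes 2 of 13 members rose (0.579% of all genes did) and 0 fell, with a median of 0.046. Sesn1, a stress-induced inhibitor of mTORC1, measured 10.74, 10.44, 10.39 and 10.39 on the high fat diet and 9.89, 9.77, 9.88 and 9.74 on the control diet (0.67 ± 0.11, SE, adjusted p = 0.00104). Trp53inp1, a stress protein that promotes autophagy and cell death, measured 11.70, 11.38, 10.77 and 10.85 on the high fat diet against 10.30, 10.06, 10.22 and 10.67 on the control diet (0.86 ± 0.18, SE, adjusted p = 0.0104). Both stood apart in all arrays, and the other probe sets of each were higher. Trp53inp1 lost the call without control replicate 2 (adjusted p = 0.0511) or high fat replicate 1 (0.0549). Sesn1 is also known as a target of FOXO factors.

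Among the clock genes Ciart alone passed at ZT16. Ciart, also called Chrono, is a repressor of BMAL1 and CLOCK and is itself switched on by them. It measured 8.28, 8.69, 8.23 and 8.64 on the high fat diet and 7.74, 7.54, 7.80 and 7.99 on the control diet (0.69 ± 0.099, SE, limma adjusted p = 0.000181), with no overlap. Fitted to the 8 arrays alone it did not pass (adjusted p = 0.0862). Its promoter is shown because it holds the E-box CACGTG, the element that BMAL1 and CLOCK bind, 3 times in the 118 bases shown (chr3:95882247-95882364, minus strand, GRCm38.p6, E-boxes in capitals). That motif, which reads the same on both strands, stands in 7.15% of all promoters in the table. Among 1389 measured genes with it, 17 rose and 11 fell (2.02%), against 1.24% of all genes.
Ciart: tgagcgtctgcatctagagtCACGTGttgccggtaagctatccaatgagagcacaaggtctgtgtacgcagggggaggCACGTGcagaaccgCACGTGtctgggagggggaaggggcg

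The core activator Arntl, which encodes BMAL1, measured 7.64, 7.99, 7.97 and 7.12 on the high fat diet and 8.23, 8.21, 8.29 and 8.94 on the control diet. Every high fat array lay below every control array, but the difference did not pass (-0.74, adjusted p = 0.175), and the gene's other probe set was at -0.19. The other activators and nuclear receptors were at 0.19 for Clock, 0.18 for Npas2, 0.35 for Nr1d2 and 0.17 for Rora, and 0 of these 5 genes passed. Of the repressors, Per1 was at 0.48, Per2 at 0.23, Per3 at -0.24, Cry1 at -0.26, Cry2 at 0.042, Bhlhe40 at 0.27 and Bhlhe41 at -0.042, with adjusted p from 0.233 to 0.905. The output factors Dbp (0.15), Tef (0.011), Hlf (-0.095), Nfil3 (0.042), Wee1 (-0.019) and Usp2 (0.28) had adjusted p from 0.598 to 0.979. The SE of the Arntl difference was 0.28, so a p that misses the threshold does not show that these genes were alike in the diets.

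**Figure D3:**
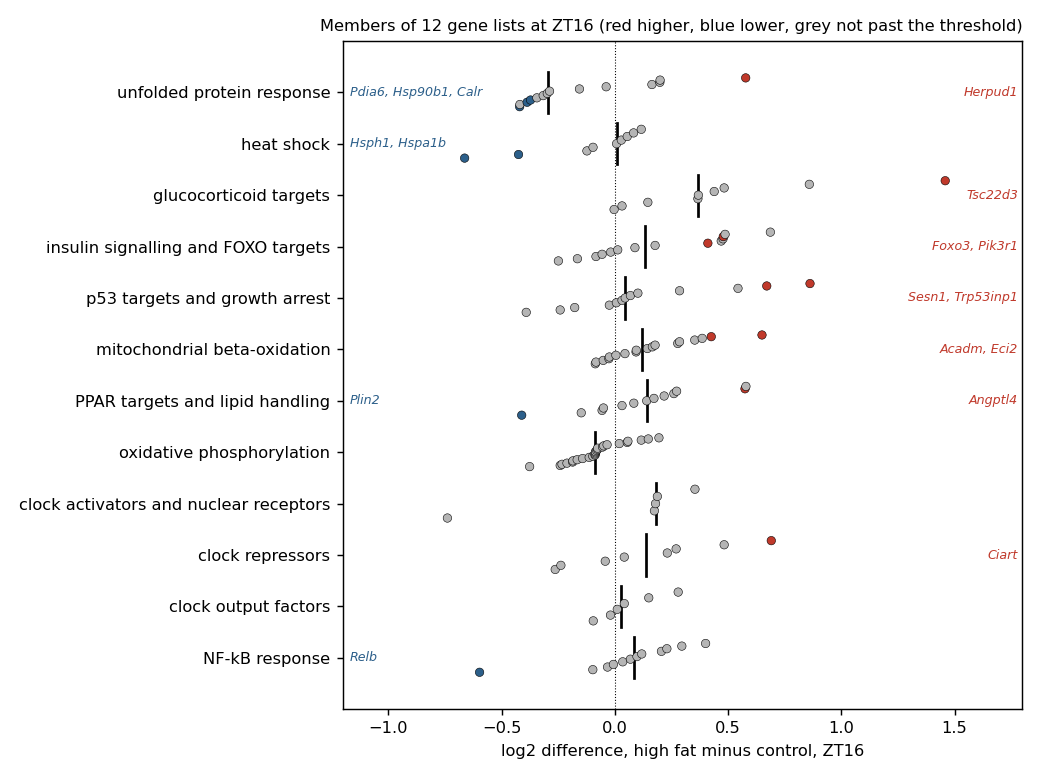
Each point is a gene of the list named on the left, placed by its log2 difference, high fat minus control, at ZT16; the black bar is the median of the list. The members past the threshold are red (higher) or blue (lower) and are named at the margins. The median of the unfolded protein response list lies left of 0, at -0.29, and that of the glucocorticoid list right of it, at 0.37.

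In the lists of lipid metabolism most members did not pass. Of 18 measured genes of mitochondrial beta-oxidation 2 rose and 0 fell, with a median of 0.12, where 0.579% of all genes rose. Of the 18, 13 were positive. In 4 every high fat array lay above every control array, where 3.99% of all genes did, and in 0 below. Acadm, the medium-chain acyl-CoA dehydrogenase, measured 9.24, 9.27, 9.06 and 9.19 on the high fat diet and 8.95, 8.85, 8.59 and 8.65 on the control diet (0.43 ± 0.10, SE, adjusted p = 0.0358). Eci2, an enoyl-CoA isomerase, measured 9.41, 9.67, 8.74 and 9.21 on the high fat diet against 8.78, 8.57, 8.63 and 8.45 on the control diet, where high fat replicate 3 fell within the control range (0.65 ± 0.15, SE, adjusted p = 0.0214). Acaa2, the last enzyme of the cycle, stood apart without passing (0.29, adjusted p = 0.0979). Without control replicate 2, high fat replicate 1 or high fat replicate 2 neither gene passed, and Acadm also missed the threshold without control replicate 3 or 4 or high fat replicate 4 (adjusted p of 0.0618 to 0.105).

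Of 13 PPAR targets and lipid handling genes 1 rose and 1 fell, where 0.579% and 0.661% of all genes did. Angptl4, a secreted inhibitor of lipoprotein lipase, measured 8.19, 8.17, 7.98 and 8.21 on the high fat diet and 7.52, 7.60, 7.64 and 7.49 on the control diet (0.58 ± 0.13, SE, adjusted p = 0.0269), while its other probe set was at -0.07. Plin2, which coats lipid droplets, measured 8.10, 8.24, 8.42 and 8.04 on the high fat diet against 8.78, 8.68, 8.45 and 8.54 on the control diet (-0.41 ± 0.10, SE, adjusted p = 0.0385). Each stood apart, and neither passed without control replicate 1 or 2 or high fat replicate 1, 2 or 4. Fabp5, the epidermal fatty acid-binding protein, was at 0.58 with every high fat array above every control array, led by high fat replicate 3 at 10.83 (adjusted p = 0.165).

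Ceramides form the lipid barrier of the skin, and their genes were gathered in a list of 30 after the values were seen. Of its 29 measured members 4 rose and 2 fell, where 1.24% of all genes changed, and the median was 0.059. Degs1, the desaturase that completes ceramide, measured 9.49, 9.50, 9.85 and 9.56 on the high fat diet and 8.84, 9.02, 9.20 and 9.17 on the control diet (0.54 ± 0.11, SE, adjusted p = 0.00816). Cers3, the ceramide synthase of the longest acyl chains, was at 0.68 (adjusted p = 0.049), and Nsmaf (0.82) and Acer2 (0.84) rose as given above. Cers2, another ceramide synthase, fell by 0.37 on the log2 scale (adjusted p = 0.0478). Sphk2, a sphingosine kinase, fell by 0.55 (adjusted p = 0.0183), but its other probe set was at 0.51. Cers2 lost the call without any array but control replicate 4 (adjusted p of 0.0514 to 0.147), Cers3 without any of control replicates 1 to 3 or high fat replicates 2 to 4 (0.0638 to 0.132), and Sphk2 without control replicate 1 or 2 or high fat replicate 2 (0.0611 to 0.0737). Acer2 lost it without any of control replicates 1 to 3 or high fat replicate 1, 2 or 4 (0.0549 to 0.138). Nsmaf lost it without control replicate 1 or 2 or high fat replicate 1, 2 or 4 (0.0549 to 0.0933). Degs1 kept it without each array in turn. In the 8 arrays alone Degs1, Nsmaf, Acer2, Cers3, Cers2 and Sphk2 did not pass (0.0898 to 0.171).

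Oxidative phosphorylation held 0 of 26 genes past the threshold and a median of -0.085. Of the 26, 20 were negative. In 4 every high fat array lay below every control array, where 4.64% of all genes did, and in 0 above. Cox7a2 came nearest the threshold (-0.24, adjusted p = 0.0581). Its other probe set passed, at -0.33 (adjusted p over probe sets of 0.0219). Pdk1, the kinase that shuts pyruvate dehydrogenase, measured 9.98, 9.78, 9.92 and 10.02 on the high fat diet and 9.08, 9.42, 9.29 and 9.46 on the control diet (0.61 ± 0.11, SE, adjusted p = 0.00246). Pfkm, a phosphofructokinase, was at 0.47 (adjusted p = 0.0484), and the transporters Slc6a6 for taurine and Abcc3 for organic anions were at 0.80 and 0.64 (adjusted p = 0.0299 and 0.00091). The arrays of these 4 genes, chosen after their values were seen, did not overlap. Pfkm lost the call without any array but high fat replicate 2 (adjusted p of 0.0549 to 0.155). Slc6a6 lost it without control replicate 1 or 2 or high fat replicate 1, 2 or 4 (0.0567 to 0.0883). Of 11 glycolysis genes on the list, 13 of fatty acid synthesis and 15 of cholesterol synthesis and uptake, 0 passed.

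Genes of keratinocyte fate and signalling changed one by one. In the suprabasal list Tgm3 was the 1 of 16 that rose and 0 fell, and in the bulge list Postn was the 1 of 12. Over all genes 0.579% rose and 0.661% fell. Among genes chosen after their values were seen, the receptor Notch1 measured 10.90, 10.95, 11.20 and 11.02 on the high fat diet and 11.33, 11.31, 11.36 and 11.31 on the control diet (-0.31 ± 0.065, SE, adjusted p = 0.0121), without overlap. Tnfrsf19, a TNF receptor family member of the hair follicle, was at -0.49, the BMP-responsive regulator Id4 at -0.37 and the keratin Krt80 at -0.31. The R-spondin receptor Lgr4 was at 0.50, with overlapping arrays, and the homeobox genes Irx2 and Irx3 were at 0.43 and 0.54, with arrays apart. All of these passed, but only Tnfrsf19 kept the call without each of the ZT16 arrays in turn. Irx3 lost it without any array but control replicate 4 (adjusted p of 0.0549 to 0.0968). The other probe set of Lgr4 was at 0.003. Krt6a and Krt16, keratins of stressed epidermis, were at 1.15 and 0.74 but varied widely, with 7.31 to 8.78 and 7.62 to 9.78 in the high fat arrays and 6.63 to 7.32 and 7.67 to 8.61 in the control arrays, and did not pass (adjusted p = 0.163 and 0.323).

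Of 12 genes of the NF-kB list 1 fell and 0 rose, where 0.661% of all genes fell, while 8 were positive and the median was 0.084. Relb, a subunit of noncanonical NF-kB, measured 6.75, 6.92, 7.03 and 6.92 on the high fat diet and 7.50, 7.50, 7.40 and 7.60 on the control diet (-0.60 ± 0.11, SE, adjusted p = 0.00246). Outside the list, Zc3h12a rose as given above and Traf5 and Cd83 fell. Traf5 measured 9.14, 8.96, 8.97 and 9.01 on the high fat diet against 9.87, 9.62, 9.64 and 9.64 on the control diet (-0.67 ± 0.11, SE, adjusted p = 0.000816). Cd83, a surface protein of activated dendritic cells also found on epithelia, was at -0.52 (adjusted p = 0.00587, chosen after its values were seen). The arrays of Relb, Traf5 and Cd83 did not overlap between diets. Nfkbiz, an inducible NF-kB cofactor, was at 0.40 (adjusted p = 0.0611), and of its 2 other probe sets 1 passed, at 0.67 (adjusted p over probe sets of 0.0239), and 1 was at -0.02. Of 11 interferon response genes 0 passed, 10 were negative and the median was -0.037, with Usp18, which dampens interferon signalling, at -0.57 (adjusted p = 0.0697).

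Lists of other cells held 3 members past the threshold, where 1.24% of all genes passed. The endothelial receptor Tek was at -0.23 and the muscle troponin Tnni2 at 0.24, both small and at low levels of 4.86 to 6.66, and Plin2 also stands in the sebaceous gland list. The leukocyte, fibroblast, melanocyte, adipocyte, hair matrix, erythrocyte and Merkel cell lists had 0. Lists with 0 members past the threshold also included S phase (19 genes, median 0.028), mitosis (17 genes, 0.020), basal keratinocyte (13 genes, 0.081), antioxidant, BMP, Wnt, immediate early and stress keratin genes. Another probe set passed for Dst of the basal list (0.65) and for Sod2 of the antioxidant list (-0.545), with adjusted p over probe sets of 0.0024 and 0.0272. The remaining probe sets of both genes did not pass.

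The diet difference at ZT16 was next set against the mean diet difference of the other 5 time points. It differed for 225 genes (1.32% of those tested), and 98 of these were among the 212. In 83 of the 98 the mean difference at the other time points had the opposite sign, which choosing genes for that difference favours. Of all 212 genes 118 had the same sign in the mean of the other time points. Of the 212 genes 140 passed at no other time point. At ZT8, where 8.34% of genes passed, 29 of the 212 did, 10 of them in the same direction. At ZT12, where 18.0% passed, 43 did, 38 of them in the same direction. At ZT0, ZT4 and ZT20, where 0.854%, 0.386% and 0.702% passed, 5, 2 and 5 of the 212 did. The diet difference at ZT16 differed from that at ZT12 in 1363 genes (7.97%) and from that at ZT20 in 93 (0.544%). These comparisons share the ZT16 arrays.

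**Figure D4:**
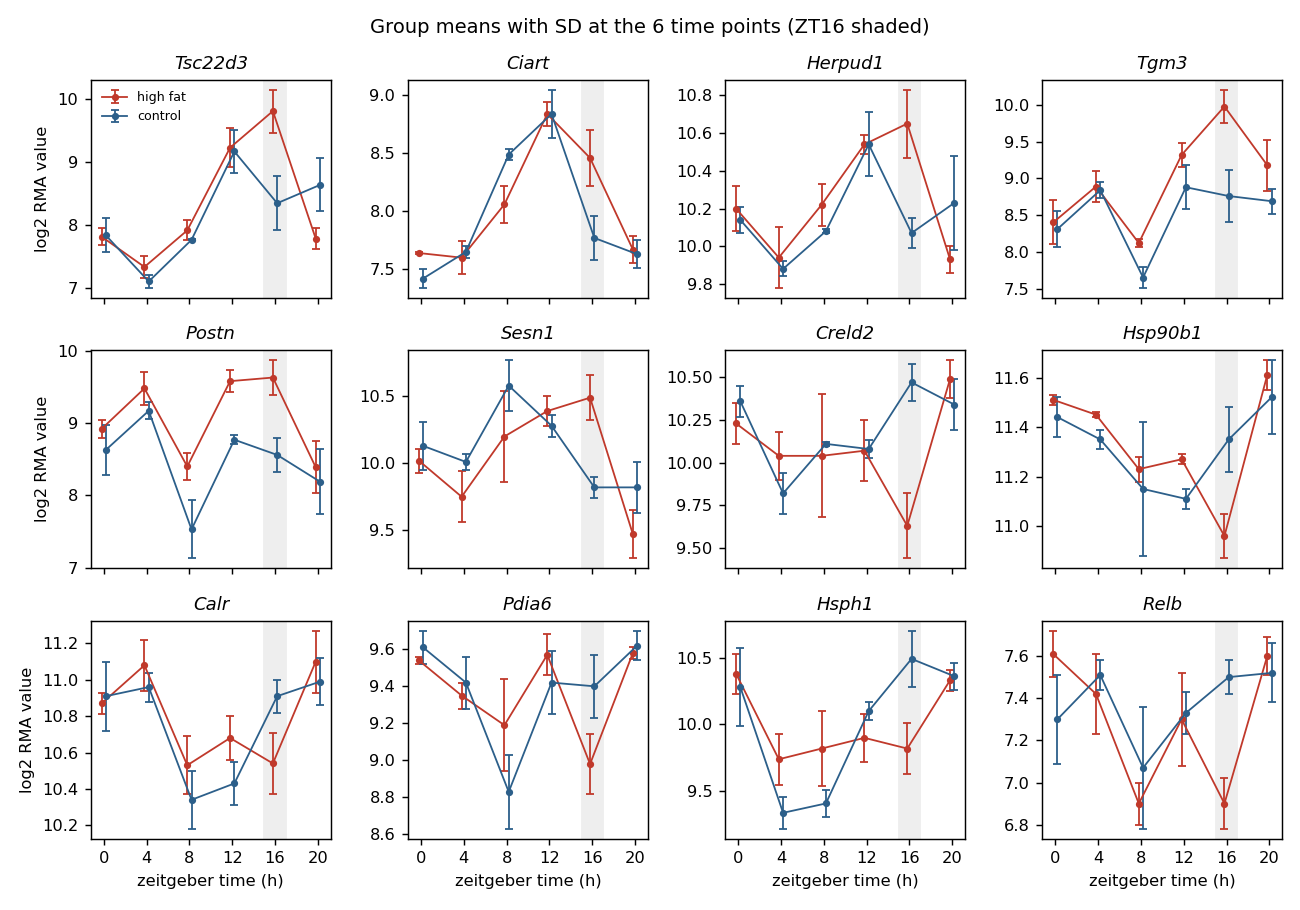
Mean log2 RMA value with SD of 12 genes at the 6 time points, high fat in red and control in blue, with ZT16 shaded; groups hold 2 to 4 arrays. At ZT16 the high fat means of Tsc22d3, Ciart, Herpud1 and Sesn1 stand above the control means, those of Creld2, Hsp90b1, Calr, Pdia6, Hsph1 and Relb stand below, and Postn is higher on the high fat diet at all 6 time points.

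Several genes that rose at ZT16 had close means in the diets 4 h before. On the high fat diet Tsc22d3 averaged 9.23 ± 0.31 at ZT12, 9.81 ± 0.34 at ZT16 and 7.79 ± 0.17 at ZT20 (SD, n = 4 each), and on the control diet 9.17 ± 0.34 at ZT12 (SD, n = 3), 8.35 ± 0.43 at ZT16 and 8.64 ± 0.42 at ZT20 (n = 4 each). The diets had thus changed places by ZT20, where the difference was -0.86 (limma, adjusted p = 0.036). At the same times Ciart averaged 8.84 ± 0.10, 8.46 ± 0.24 and 7.67 ± 0.12 on the high fat diet, and 8.84 ± 0.21, 7.77 ± 0.19 and 7.63 ± 0.12 on the control diet. Herpud1 averaged 10.54, 10.65 and 9.93 on the high fat diet, and 10.54, 10.07 and 10.23 on the control diet. For Sesn1 the means were 10.39, 10.49 and 9.47 on the high fat diet, and 10.28, 9.82 and 9.82 on the control diet. The ZT16 difference of each of these 4 genes exceeded that of ZT12 and that of ZT20 (adjusted p of 0.00445 and 3.4e-05 for Tsc22d3, 0.00445 and 0.0258 for Ciart, 0.00892 and 0.000756 for Herpud1, and 0.0283 and 0.0012 for Sesn1).

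Creld2, Hsp90b1, Pdia6 and Calr were near their control level, or above it, at the neighbouring times. Hspa5 was not: it was already lower on the high fat diet at ZT12 (-0.51, limma adjusted p = 0.0198). Its ZT16 difference did not pass against that at ZT12 (adjusted p = 0.833). Creld2 averaged 10.07 at ZT12, 9.63 at ZT16 and 10.49 at ZT20 on the high fat diet, and 10.08, 10.47 and 10.34 at these times on the control diet. On the high fat diet ZT16 was thus the lowest of the 6 means, and on the control diet it was the highest. Hsp90b1 averaged 11.27, 10.96 and 11.61 at ZT12, ZT16 and ZT20 on the high fat diet, and 11.11, 11.35 and 11.52 on the control diet. For both, the ZT16 difference was lower than at ZT12 (adjusted p = 0.0013 and 0.00141) and at ZT20 (0.000677 and 0.0172). For Pdia6 and Calr it was lower than at ZT12 (adjusted p = 0.00733 for both), and the difference from ZT20 did not pass (0.133 and 0.0882). Postn was different: it was also higher on the high fat diet at ZT12 (0.81, adjusted p = 0.00595), and its ZT16 difference did not pass against the mean of the other time points (adjusted p = 0.151).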

How the data were processed

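RNA from epidermal stem cells was amplified from 25 ng with 17 cycles, labelled with biotin and hybridised to arrays, per the labels' protocols. The authors deposited log2 values made with RMA, per the submitters' processing notes, which corrects background, normalizes between arrays and summarises probes. The sources used here do not give the version of RMA, a genome build or any batch adjustment. All array medians lay between 6.41 and 6.44 and no 2 arrays were identical. The number of arrays limits the precision.

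Of 45141 probe sets, 28898 had 1 gene in the platform annotation, 551 had several and were left out, and 15692 were unnamed (104 of them control probe sets). Each of 17097 genes was represented by its brightest probe set on average over the arrays, 17055 of which are listed among the reference genes and 7180 of which had several probe sets. Diet at ZT16 was a contrast in a model with 12 group means fitted across the 41 arrays by lmFit and eBayes in limma 3.58.1 in R 4.3.3 (29 residual and 2.63 prior degrees of freedom). Adjusted p-values were computed by Benjamini-Hochberg across the genes, with calls made below 0.05 and no filter on low values. All tests were two-sided. The procedure was tested on simulated data. Their noise was drawn independently for each gene and array, so deviations shared by many genes of an array were not covered. Reading used data.table in version 1.17.8, and tables and figures used pandas 2.3.3 and matplotlib 3.10.9 in Python 3.11.15.

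The comparison and the 36 gene lists (460 genes, 416 measured) were chosen with earlier results of these data known. Named genes were the 15 largest rises and 15 largest falls past the threshold, the 6 smallest adjusted p of ZT16 against the other times, list members past the threshold, every clock gene and, in each list described, at most 4 members by smallest p, predicted genes passed over. The 2 lists and the genes said to be chosen after their values were seen are outside this rule. Alternatives were averaged probe sets, probe sets taken singly, dim genes left out, trended and robust eBayes, array weights, subtracted array medians, a residual component, a replicate block, the 8 arrays alone, ZT8 left out, ZT12 left out of the other times and each ZT16 array left out. Same-numbered arrays of the diets did not deviate together (correlations of -0.247, -0.197, -0.138 and -0.130), so the numbers were not taken to pair them.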

Additional observations from a re-analysis of the deposited data

Results flagged for a closer look

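The effect of diet at ZT16 differed from the mean effect of the other 5 time points, by the contrast of the difference itself (limma, adjusted p below 0.05), in 225 genes. It differed from the effect at ZT12 in 1363 genes and from that at ZT20 in 93. Time point and collection day cannot be told apart. Among the named genes the log2 difference of differences was positive for Tsc22d3 (1.55), Tent5b (1.26), Trp53inp1 (1.11), Bcar3 (1.01), Nsmaf (0.97), Zbtb16 (0.92), Stil (0.91), Tgm3 (0.90), Sesn1 (0.87), Cyp4v3 (0.77), Zc3h12a (0.76), Ciart (0.74), Pik3r1 (0.68), Pdk1 (0.64), Irx3 (0.62), Herpud1 (0.59), Lgr4 (0.57), Nfkbiz (0.55), Foxo3 (0.51), Irx2 (0.47) and Tnni2 (0.25). It was negative for Limk1 (-1.11), Ptpn6 (-1.10), Zkscan3 (-1.08), Timp3 (-1.04), Rfesd (-0.93), Creld2 (-0.87), Kti12 (-0.83), Hsph1 (-0.80), Traf5 (-0.80), Mrps33 (-0.78), Taok3 (-0.65), Efna2 (-0.64), Cd83 (-0.62), Relb (-0.62), Manf (-0.62), Tomm34 (-0.60), Hspa1b (-0.57), Tnfrsf19 (-0.53), Calr (-0.50), Pdia6 (-0.49), Hsp90b1 (-0.49), Dnajb2 (-0.44), Sec13 (-0.44), Id4 (-0.43), Ddit3 (-0.39), Notch1 (-0.34), Tek (-0.26) and Hspa4 (-0.23).

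Single arrays stood apart from the other 3 of their group by Dixon's test in 12 of the 216 groups of 4 examined, where chance gives about 1 in 20. Control replicate 4 was highest for Arntl (8.94), Klf9 (11.41), Rora (12.21) and Wee1 (10.85). Control replicate 2 was highest for Bhlhe41 (5.73) and Dnajb2 (10.56), and control replicate 1 for Traf5 (9.87). High fat replicate 3 was highest for Fabp5 (10.83) and Hsph1 (10.11), high fat replicate 2 for Clock (8.39) and Tgm3 (10.33), and high fat replicate 1 for Sesn1 (10.74).

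Of 15588 probe sets without a gene name here, which enter none of the comparisons above, 220 passed the threshold at ZT16, with 101 higher and 119 lower on the high fat diet. Of all 45037 probe sets tested together, named or not, 666 passed.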

How the results depend on the processing

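The 212 genes of the diet comparison at ZT16 kept their direction in all alternatives that used the same probe set for a gene. With the mean of probe sets 1 reversed, and with other probe sets of the named genes those listed at the end. The number past the threshold depended on the setting. It was 67 in the 8 arrays alone (48 of them among the 212), 82 (without control replicate 1) to 350 (without control replicate 4) with 1 array left out, 558 with array weights, 478 with the first residual component and 437 of 28898 probe sets taken singly. With the replicate block it was 153, 148 of them among the 212. In the 8 arrays alone with the block limma called 0 genes, against 1969 at an unadjusted p below 0.05, with few residual degrees of freedom left. The pairing check gave correlations below 0, so the block is no test of pairing. Subtracting the median of all probe sets gave 198 genes, 54% of them higher, against 46.7% as deposited.

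The difference from the other time points gave 225 genes, 134 without ZT8, 466 with array weights, 486 with the residual component and 86 to 497 with 1 array left out, lowest without control replicate 1 and highest without control replicate 4. The difference from ZT12 gave 2241 genes with array weights and 900 to 1801 with 1 array left out, and that from ZT20 gave 206, 192 with the residual component and 32 to 132. Of 67 named genes past the threshold, 67 passed without ZT8, 27 without each ZT16 array in turn and 21 in the 8 arrays alone. Those 27 include Creld2, Hsp90b1, Herpud1, Hsph1, Hspa1b, Tsc22d3, Tgm3, Postn, Ciart, Sesn1, Traf5, Ptpn6, Relb and Timp3. Reversed signs came from other probe sets for Angptl4 (-0.07), Efna2 (0.04), Limk1 (0.14), Pde4b (-0.09), Sphk2 (0.51), Tnni2 (-0.01) and Hspa4 (0.31, and 0.02 as a mean of its probe sets). The cause was not tested. Signal over background is unknown because scanner files were not used here.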

Other observations

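Slc15a2, a transporter of small peptides, was singled out after its values were seen. It measured 5.92, 3.73, 8.05 and 3.71 in the high fat arrays at ZT16, and 9.30, 9.82, 8.44 and 9.17 in the control arrays. Every high fat array was lower, at a log2 difference of -3.83, by far the largest of all genes, but the high fat arrays were widely scattered and the difference did not pass (limma, adjusted p = 0.0514). With probe sets taken singly, the probe set that stood for the gene was just past the threshold (adjusted p over probe sets of 0.0493). The 2 other probe sets of the gene were at -0.06 and 0.01, at lower levels.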
